A study of Mus musculus with 8 samples.

Results

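The genes described here were Gas6, Kbtbd11, Khdrbs3, Cstf2t and Pcp4l1, 5 of the 19359 genes measured above background in mouse small-intestinal organoids. They were chosen from these data, as genes that were higher on the array of Ascl2-overexpressing organoids of experiment 2, on the Tcf7l2 null array with Ascl2 overexpression and on that of Ascl2 null organoids, and that were not higher in experiment 1. The values on these arrays are therefore a description, and no test was run on them. The array holds 7 probes for the 5 genes, 3 of them for Kbtbd11 and 1 for each other gene, and all 7 passed the filter on dim probes.

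Small-intestinal organoids are cultures of intestinal epithelium that grow from crypt stem cells and also hold differentiated cell types. The data come from 8 Agilent arrays with 2 colours. Each array other than the self-self arrays described below set RNA of 1 organoid culture, its own RNA, against RNA of a control culture. In experiment 1, organoids transduced with Ascl2 under a CMV promoter were hybridised against VillinCreERT2 organoids on 2 arrays with swapped dyes, with RNA taken after 24 h by the label of the transduced organoids. In experiment 2, Ascl2-overexpressing organoids, Tcf7l2 null organoids with Ascl2 overexpression and Tcf7l2 null organoids had 1 array each against dsGFP-transduced organoids, so these 3 arrays share their control. In experiment 3, Ascl2 null organoids had 1 array against VillinCreERT2 organoids. All groups, controls included, had a 16 h pulse of 4OH-tamoxifen, which activates CreERT2, deletes the targeted gene or switches on the transgene, and in the dsGFP organoids induces GFP. CreERT2 in VillinCreERT2 organoids is driven by the promoter of villin, a gene of the intestinal epithelium. Experiments 2 and 3 each also had a self-self array with control RNA in both colours. For the experiment 3 control, one label names VillinCreERT2 organoids and another the floxed Ascl2 organoids.

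Each experiment was on a slide of its own, so slide and experiment cannot be told apart. The share of spots well above background was 50.1% to 61.1% in Cy3 and 53.8% to 67.4% in Cy5. The Ascl2 probe did not read higher under any of the 3 labels of Ascl2 overexpression: its log2 ratio was -0.54 in Ascl2-overexpressing organoids of experiment 2, -0.75 in Tcf7l2 null organoids with Ascl2 overexpression and -0.10 in experiment 1. In Ascl2 null organoids it was -0.90. The brightest Tcf7l2 probe was at -0.51 in Tcf7l2 null organoids but at 0.01 in Tcf7l2 null organoids with Ascl2 overexpression, and it was at -0.41 in experiment 1, where Tcf7l2 was not targeted. The labels do not say which sequence the transgene carries or which part of a gene was deleted, so the labels, used here as given, remain unchecked by these probes. All 7 epithelial markers examined, Epcam and Vil1 among them, were well above background in both colours of every array.

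The 5 genes have unlike products. Gas6 is a secreted, vitamin K-dependent ligand that bridges phosphatidylserine on dying cells to the receptor tyrosine kinases Tyro3, Axl and Mertk, through which phagocytes clear cell remains and dampen inflammation. Cstf2t is an intronless copy of Cstf2, the RNA-binding subunit of the cleavage stimulation factor that helps to place the poly(A) site of an mRNA, and is best known from mouse male germ cells. Khdrbs3 is a STAR-family RNA-binding protein that regulates alternative splicing and is best known from brain and testis. Kbtbd11 has a BTB domain and kelch repeats, an arrangement found in adaptors that bring substrates to Cul3 ubiquitin ligases. Pcp4l1 is a small protein with an IQ motif, related to the calmodulin regulator Pcp4.

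The promoter sequences below are shown because the 5 genes were high on the same arrays and Ascl2 is a basic helix-loop-helix factor, a class that binds E-boxes, CANNTG. RefSeq's promoter table (GRCm38.p6) holds Gas6, Cstf2t and Pcp4l1, 3 of the 5 genes, and each sequence is the 250 bases before the annotated start of the gene, with E-boxes in capitals.
Gas6 (chr8:13494536-13494785, minus strand): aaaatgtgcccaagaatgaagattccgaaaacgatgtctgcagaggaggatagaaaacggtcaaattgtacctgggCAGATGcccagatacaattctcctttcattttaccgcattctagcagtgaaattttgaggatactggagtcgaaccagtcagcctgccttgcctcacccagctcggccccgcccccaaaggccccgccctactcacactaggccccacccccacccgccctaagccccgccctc
Cstf2t (chr19:31082591-31082840, plus strand): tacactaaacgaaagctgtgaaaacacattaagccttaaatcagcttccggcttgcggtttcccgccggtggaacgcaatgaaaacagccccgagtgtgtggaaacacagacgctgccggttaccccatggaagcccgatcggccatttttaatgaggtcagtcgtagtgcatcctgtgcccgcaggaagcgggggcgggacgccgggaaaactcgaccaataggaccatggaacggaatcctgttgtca
Pcp4l1 (chr1:171196269-171196518, minus strand): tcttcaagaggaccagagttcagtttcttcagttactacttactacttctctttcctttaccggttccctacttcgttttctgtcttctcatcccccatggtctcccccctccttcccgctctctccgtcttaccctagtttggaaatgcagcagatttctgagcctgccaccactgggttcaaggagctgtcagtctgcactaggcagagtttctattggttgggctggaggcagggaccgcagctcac

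The Gas6 window holds 1 E-box, CAGATG, 174 to 169 bases before the start, and the Cstf2t and Pcp4l1 windows hold none, on either strand. Of all 27025 RefSeq promoter windows of this length, 66.0% hold at least 1 E-box. The GC box GGGCGG occurs 4 times before Gas6, once before Cstf2t and not before Pcp4l1, and 32.9% of all windows hold it. The CCAAT box occurs once each before Cstf2t and Pcp4l1, 33 to 29 and 34 to 30 bases before the start, and 34.5% of all windows hold it. A TATA box, TATAAA, which 13.0% of all windows hold, was found in none of the 3. No motif searched was shared by all 3 windows. A match describes these letters only.

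On the 3 arrays by which the genes were chosen, the log2 ratio of own over control RNA, less the dye term of the model, was between 2.94 and 4.54 in Ascl2-overexpressing organoids of experiment 2, between 3.31 and 5.09 in the Tcf7l2 null organoids that overexpress Ascl2, and between 0.85 and 5.29 in Ascl2 null organoids. A gene counts here as called at or beyond 2-fold, a log2 ratio of 1, because a condition with 1 array allows no test. In Ascl2-overexpressing organoids of experiment 2 each of the 5 passed 2-fold higher, as did 1.13% of all genes. Each of the 5 also passed 2-fold higher in Tcf7l2 null organoids with Ascl2 overexpression, against 1.19% of all genes. In Ascl2 null organoids 4 of the 5 were, against 2.33% of all genes, and Pcp4l1 was not. Since the genes were picked on these 3 contrasts, nothing is read from those shares.

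**Figure D1:**
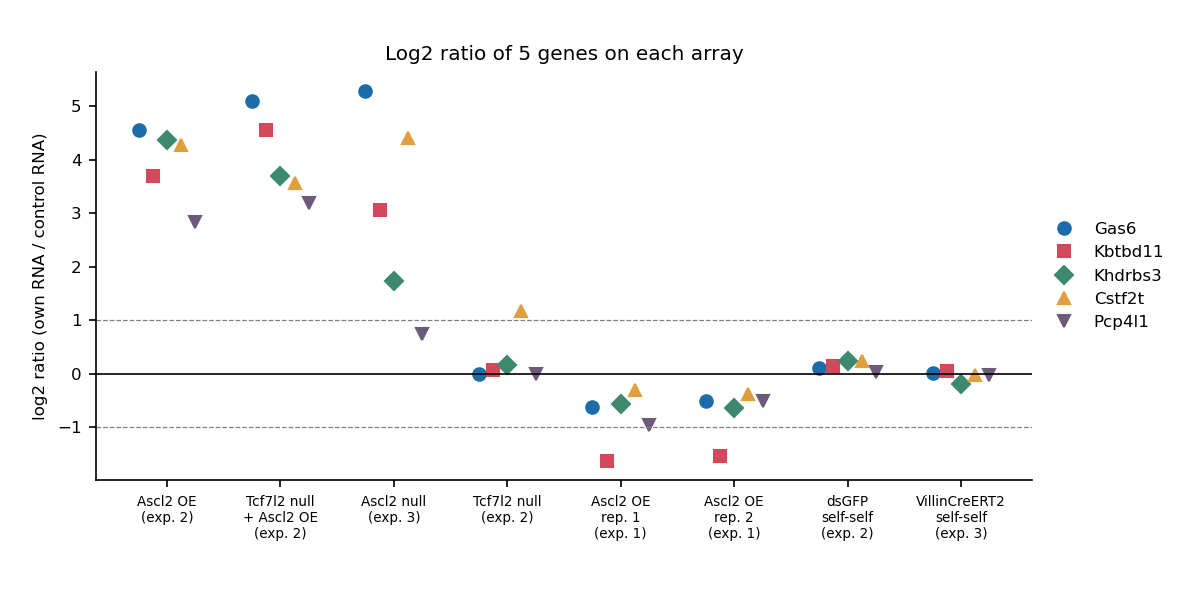
Log2 ratio of own over control RNA (vertical axis) of the brightest probe of each of the 5 genes on each of the 8 arrays (horizontal axis), before the dye term is taken off; the dashed lines mark 2-fold, and on self-self arrays the ratio is Cy5 over Cy3. The points of the 3 arrays at the left lie above 2-fold except Pcp4l1 in Ascl2 null organoids at 0.74, those of experiment 1 lie below 0, and those of the self-self arrays lie between -0.19 and 0.25.

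On all 3 of these arrays, 71 of the measured genes (0.367%) passed 2-fold higher. When these 71 were ranked by the lowest of their 3 log2 ratios, Gas6 was at rank 1 with 4.54, Kbtbd11 at rank 6 with 3.05 and Khdrbs3 at rank 24 with 1.70. Cstf2t is among the 71 too, but no rank is read from it, because its controls were not well above background and its lowest ratio, 3.50, is a lower bound. The other ranks hold for the ratios as measured, since a gene with a lower bound could stand higher. In experiment 1, 56 of the 71 had a log2 ratio below 0 (these 56 are 0.289% of all genes). In Tcf7l2 null organoids 66 of the 71 stayed within 2-fold (these 66 are 0.341% of all genes). Neither share says how many of all genes met that criterion alone. The median of all genes in experiment 1 was -0.002. In Tcf7l2 null organoids 0.414% of all genes passed 2-fold higher and 0.496% lower, so most genes stayed within it there. The glucagon gene Gcg, rank 2, had 3.84 in Ascl2-overexpressing organoids of experiment 2, 4.81 in Tcf7l2 null organoids with Ascl2 overexpression, 5.39 in Ascl2 null organoids, 0.83 in Tcf7l2 null organoids and -1.61 in experiment 1.

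**Figure D2:**
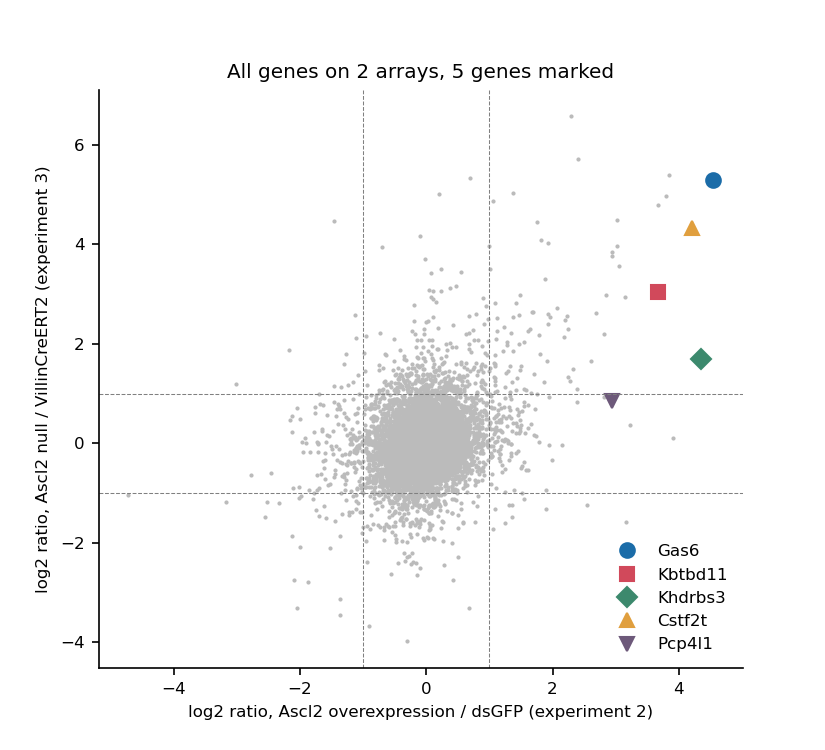
Log2 ratio of every gene in Ascl2-overexpressing organoids over dsGFP organoids in experiment 2 (horizontal axis) and in Ascl2 null over VillinCreERT2 organoids in experiment 3 (vertical axis); small points are all genes, large symbols the 5 genes, and dashed lines mark 2-fold. Gas6, at 4.54 and 5.29, lies farthest right of all genes under this normalisation, in which Cstf2t is drawn at lower bounds. Pcp4l1, at 2.94 and 0.85, lies below the 2-fold line of the vertical axis.

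Gas6 was read by a probe at chromosome 8, 13465444 to 13465503 on the minus strand (mm9, the array's annotation). Its spot intensity above local background, in scanner units, was 3429.5 in Ascl2-overexpressing organoids of experiment 2, against 125.5 in dsGFP organoids on the same array. It was 4866.5 in Tcf7l2 null organoids with Ascl2 overexpression, against 120.5 in dsGFP organoids. It was 10644 in Ascl2 null organoids, against 273 in VillinCreERT2 organoids, and all 6 of these channels were well above background. Under this normalisation Gas6 had the highest measured log2 ratio of all genes in the first comparison (4.54) and the second (5.09). In the third it had the 5th highest (5.29). Ratios to dim controls, such as those of Cstf2t, are lower bounds, and the order depends on the processing. In the authors' deposited table Cstf2t stood above Gas6 in the first (7.31 against 5.73) and the second (7.38 against 6.36). Khdrbs3, at 5.91, also stood above Gas6 in the first.

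In Tcf7l2 null organoids Gas6 had an intensity of 19, against 60.5 in dsGFP organoids, and neither was well above background, so no fold is given. On the dsGFP self-self array it had 24 in Cy5 and 52.5 in Cy3, again not well above background. On the VillinCreERT2 self-self array of experiment 3 it had 52 in Cy5 and 58 in Cy3. Gas6 was thus well above background in 2 of the 5 dsGFP channels, those of both arrays with Ascl2 overexpression, and in all 3 VillinCreERT2 channels of experiment 3, at intensities far below those of the 3 bright RNAs.

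In experiment 1 Gas6 was bright in both RNAs. It had 4222.5 in Ascl2-overexpressing organoids (Cy5), against 2578 in VillinCreERT2 organoids (Cy3) on the first array, and 1861.5 (Cy3), against 4578.5 (Cy5), on the array with swapped dyes. The dyes differ in brightness, so these pairs are read only after normalisation: the log2 ratio was -0.62 on the first array and -0.51 on the second, a mean of -0.57 ± 0.08 (SD, n = 2).

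Cstf2t was read by a probe at chromosome 19, 31160831 to 31160890 on the plus strand (mm9). Its intensity was 1545.5 in Ascl2-overexpressing organoids of experiment 2, against 66 in dsGFP organoids. It was 763.5 in Tcf7l2 null organoids with Ascl2 overexpression, against 54.5 in dsGFP organoids, and 1276 in Ascl2 null organoids, against 19 in VillinCreERT2 organoids. Cstf2t was well above background in none of the 5 dsGFP channels and none of the 3 VillinCreERT2 channels of experiment 3, so its log2 ratios there, 4.21, 3.50 and 4.33, are lower bounds under this normalisation. Each bound was taken as the lowest of the fitted ratio, the ratio on the array itself and the ratio to the mean of all control channels of the experiment. Cstf2t was at least 18.5-fold higher in Ascl2-overexpressing organoids of experiment 2, at least 11.3-fold higher in Tcf7l2 null organoids with Ascl2 overexpression and at least 20.2-fold higher in Ascl2 null organoids.

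Cstf2t was the gene of the 5 that also passed 2-fold in Tcf7l2 null organoids, the condition that the choice of genes did not use. It had an intensity of 122 there, well above background, against 60.5 in dsGFP organoids, which was not. Its log2 ratio was therefore at least 1.11 under this normalisation, and no rank is read from it. In this comparison 1 of the 5 genes was at or beyond 2-fold higher, beside 0.414% of all genes, and 0 were lower, beside 0.496%. The value lay close to the threshold: it was 0.77 with median centring in place of loess and 0.94 with the slide's own self-self array as the dye term. The scanner's own ratio, which floors dim signals lower, put it at 3.32.

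In experiment 1 Cstf2t had an intensity of 2975 in Ascl2-overexpressing organoids, against 1456 in VillinCreERT2 organoids, and on the swapped array 1196, against 2649.5. The log2 ratios were -0.31 and -0.38, with a mean of -0.34 ± 0.05 (SD, n = 2). On the normalised log2 scale of single channels, the Cstf2t level was 10.20 and 10.29 in Ascl2-overexpressing organoids of experiment 1 and 10.58 and 10.59 in their VillinCreERT2 controls. It was 10.74, 10.29 and 10.72 in the own RNA of the 3 arrays by which the genes were chosen, 7.59 in Tcf7l2 null organoids, between 6.11 and 6.71 in dsGFP organoids and between 6.22 and 6.32 in the VillinCreERT2 organoids of experiment 3. The gene thus stood at a like high level in both RNAs of experiment 1 and in the 3 high RNAs, and near background in the controls of experiments 2 and 3.

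Khdrbs3 was read by a probe at chromosome 15, 68923876 to 68923935 on the plus strand (mm9). Its intensity was 2162 in Ascl2-overexpressing organoids of experiment 2, against 88 in dsGFP organoids, while in the Tcf7l2 null organoids that overexpress Ascl2 it was 1339.5, against 91. In Ascl2 null organoids it was 380, against 95.5 in VillinCreERT2 organoids. The log2 ratios were 4.35, 3.67 and 1.70. The first was the 2nd highest of all genes on its array under this normalisation, where that of Cstf2t is a lower bound. The gene was dim everywhere else: it had 49 in Tcf7l2 null organoids, against 78.5 in dsGFP organoids (log2 ratio 0.14), and on the VillinCreERT2 self-self array 19 in Cy5 and 36 in Cy3, not well above background. In experiment 1 its normalised log2 level was 6.64 in Ascl2-overexpressing organoids, against 7.21 in VillinCreERT2 organoids, and on the swapped array 6.71, against 7.35. The ratios there were -0.56 and -0.63, with a mean of -0.60 ± 0.05 (SD, n = 2). Unlike Gas6 and Cstf2t, Khdrbs3 was thus low in both RNAs of experiment 1.

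Pcp4l1 was read by a probe at chromosome 1, 173103576 to 173103635 on the minus strand (mm9), and was well above background in every channel. Its intensity was 1288 in Ascl2-overexpressing organoids of experiment 2, against 169 in dsGFP organoids, while in the Tcf7l2 null organoids that overexpress Ascl2 it was 2037, against 204. The log2 ratios were 2.94 and 3.31. In Ascl2 null organoids it had 619.5, against 427 in VillinCreERT2 organoids, a log2 ratio of 0.85 that ranked 613th of 19329 genes and did not reach 2-fold. In Tcf7l2 null organoids it had 108, against 135.5 in dsGFP organoids (log2 ratio 0.10). In experiment 1 Pcp4l1 had 748.5 in Ascl2-overexpressing organoids, against 614 in VillinCreERT2 organoids, and on the swapped array 390, against 933. Its ratios were -0.95 and -0.50, with a mean of -0.73 ± 0.32 (SD, n = 2), the widest spread of the 5 genes in that experiment.

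The VillinCreERT2 control of experiment 3 did not read alike on its arrays for Pcp4l1. In Cy3 that control had 427 for Pcp4l1 on the Ascl2 null array and 119.5 on the self-self array, and on the normalised log2 scale the first was 1.75 above the second. The same difference was 1.93 for Gas6, 0.84 for Khdrbs3, 0.07 for Cstf2t and -0.11 for Kbtbd11. Of the measured genes, 1.05% passed 2-fold upward and 1.28% downward in the control of the Ascl2 null array. In experiment 2, the Cy3 control of Tcf7l2 null organoids with Ascl2 overexpression stood above the self-self array by 1.48 for Gas6, 0.85 for Pcp4l1, 0.60 for Cstf2t, 0.59 for Kbtbd11 and 0.54 for Khdrbs3, where 0.548% of genes passed 2-fold upward and 0.418% downward. The Cy3 control of the Ascl2-overexpressing organoids stood 0.97 above it for Gas6 and between -0.01 and 0.35 from it for the other 4 genes, where 0.501% passed it upward and 0.300% downward. For the control of Tcf7l2 null organoids the 5 differences lay between -0.19 and 0.30. Gas6 on the self-self array of experiment 2 and Cstf2t in every control channel of experiments 2 and 3 were not well above background. Control channels that carry RNA of the same label therefore differed between arrays for these genes, and the part of this in their ratios was not tested.

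**Figure D3:**
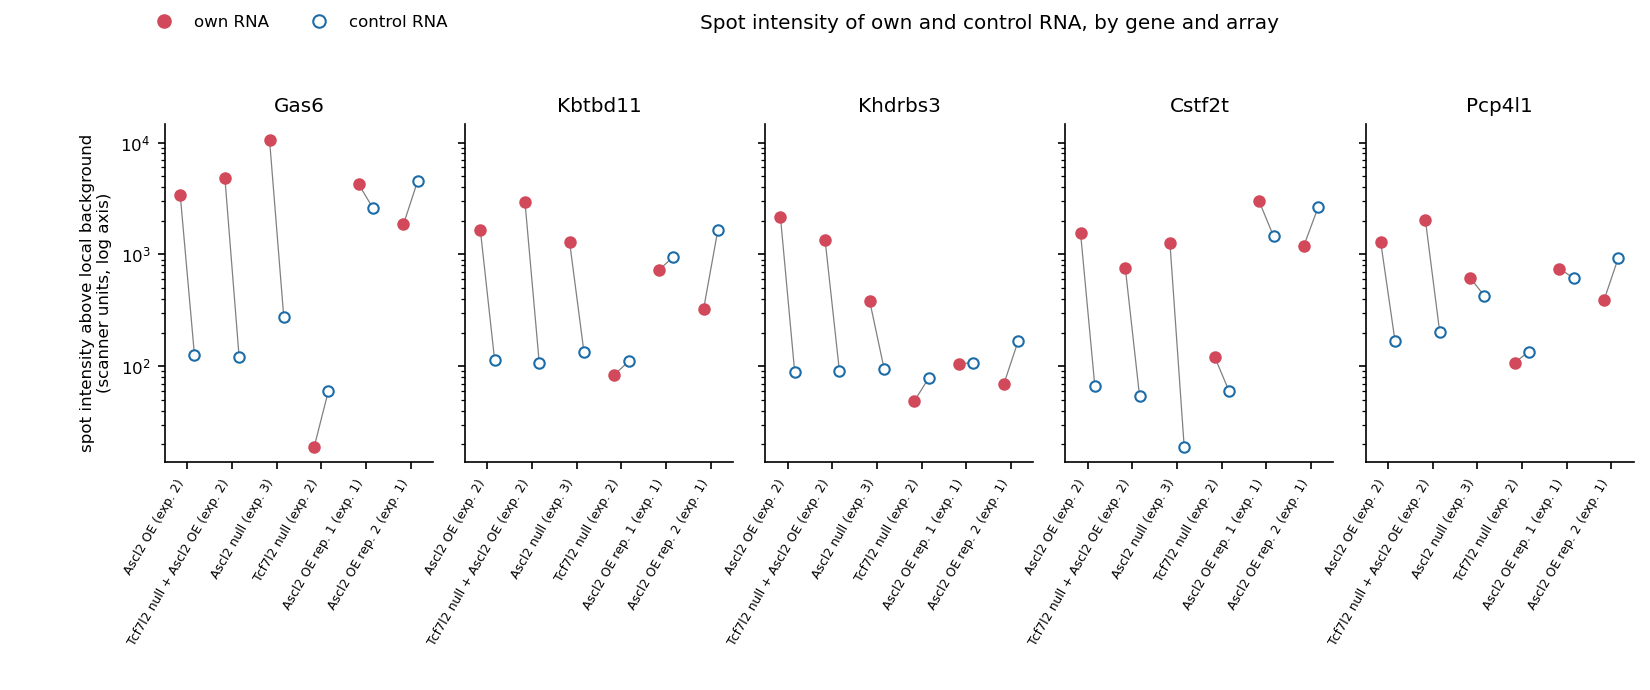
Spot intensity above local background of the brightest probe of each gene (vertical axis, log scale, scanner units) in the own RNA (filled) and the control RNA (open) of the 6 arrays that are not self-self, with a line joining the channels of an array. On the 3 arrays at the left the own RNA was brighter for all 5 genes, and in experiment 1 Gas6 and Cstf2t were bright in both RNAs, from 1196 to 4578.5, while Khdrbs3 stayed between 69 and 167.

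Kbtbd11 has 3 probes, all on the plus strand of chromosome 8 (mm9) and all annotated to the same transcript: at 15026927 to 15026986, 15029441 to 15029500 and 15033192 to 15033251, at bases 566, 3080 and 6831 of the transcript. The probe nearest the 3′ end is the brightest and stands for the gene elsewhere. Its intensity was 1663 in Ascl2-overexpressing organoids of experiment 2, against 114 in dsGFP organoids, 2938.5 in Tcf7l2 null organoids with Ascl2 overexpression, against 106.5, and 1283.5 in Ascl2 null organoids, against 134.5 in VillinCreERT2 organoids. The log2 ratios were 3.67, 4.54 and 3.05. The middle probe read the same direction at a smaller size, with 1.78, 2.52 and 1.12. The probe nearest the 5′ end read 0.18 in Ascl2 null organoids, with both RNAs well above background. It was well above background in no dsGFP channel. In Ascl2-overexpressing organoids of experiment 2 its normalised log2 level was 6.63, well above background, against 6.46 in dsGFP organoids on that array. The Cy5 dsGFP channel of the self-self array also read 6.63, so no rise is read from this probe. In Tcf7l2 null organoids, with or without Ascl2 overexpression, neither RNA was well above background, so no fold is given.

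In experiment 1 the Kbtbd11 probe nearest the 3′ end had an intensity of 723 in Ascl2-overexpressing organoids, against 957.5 in VillinCreERT2 organoids, and on the swapped array 326.5, against 1665.5. On the log2 scale the ratios were -1.63 and -1.53, with a mean of -1.58 ± 0.08 (SD, n = 2). Kbtbd11 was thus the gene of the 5 that passed 2-fold lower in experiment 1 with the processing used here, at rank 19350 of 19359 from the highest. There 0 of the 5 genes were at or beyond 2-fold higher, beside 0.263% of all genes, and 1 was at or beyond 2-fold lower, beside 0.387%. The middle probe gave -0.76 ± 0.06 and the probe nearest the 5′ end 0.01 ± 0.23 (SD, n = 2 each). The call rests on the probe and on the processing. Kbtbd11 was within 2-fold in experiment 1, at -0.77, as the mean of the 3 probes, at -0.87 with local backgrounds as deposited and at -0.08 with a shared Ascl2 effect over experiments 1 and 2. Khdrbs3, at -0.60 here, passed 2-fold lower in that experiment by the scanner's own ratio, at -1.25, and in the authors' deposited table, also at -1.25.

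**Figure D4:**
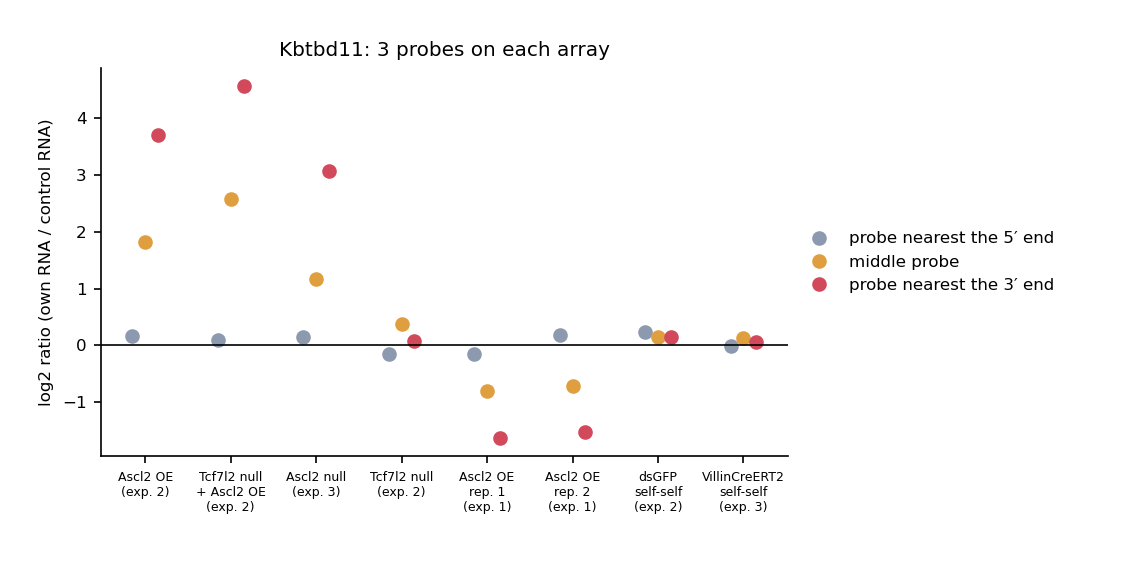
Log2 ratio of own over control RNA (vertical axis; Cy5 over Cy3 on self-self arrays), before the dye term is taken off, of the 3 Kbtbd11 probes on each of the 8 arrays. The probe nearest the 3′ end lies between -1.63 and 4.57 and the middle probe follows it between -0.80 and 2.57, while the probe nearest the 5′ end, not well above background in any dsGFP channel, stays between -0.15 and 0.23.

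All 5 genes had a log2 ratio below 0 on both arrays of experiment 1, where Ascl2-overexpressing organoids were set against VillinCreERT2 organoids, and far above 0 on the array of experiment 2 where organoids with the same label were set against dsGFP organoids. That opposition is the pattern by which they were chosen. The controls differ between these experiments, by label and in level: the normalised log2 level of Gas6 was 11.35 and 11.41 in VillinCreERT2 organoids of experiment 1, 6.73 to 8.66 in those of experiment 3 and 6.25 to 7.74 in dsGFP organoids. For Kbtbd11 these levels were 9.95 and 9.97 in VillinCreERT2 organoids of experiment 1, 7.79 to 7.95 in those of experiment 3 and 6.98 to 7.57 in dsGFP organoids. For Pcp4l1 they were 9.17 and 9.35, 7.38 to 9.15 and 7.38 to 8.42 in the same order, and for Khdrbs3 the ranges of the 3 controls overlapped. Gas6, Kbtbd11 and Cstf2t were thus higher in the VillinCreERT2 organoids of experiment 1 than in any channel of the controls of experiments 2 and 3, on different slides. For Pcp4l1 the lower channel of experiment 1, 9.17, was level with the highest of experiment 3, 9.15.

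In Tcf7l2 null organoids Kbtbd11 had a log2 ratio of 0.05, Pcp4l1 0.10 and Khdrbs3 0.14, while Gas6 was not well above background in either RNA and has no fold there. On the self-self arrays, where own and control are the same RNA, the 5 genes lay between 0.14 and 0.29 in experiment 2 and between -0.30 and 0.12 in experiment 3, channels not well above background included. The residual SD of the dye model was between 0.10 and 0.22 for the 5 genes, on 2 degrees of freedom, and measures technical spread only. The self-self arrays as a whole were less alike: on that of experiment 2, 0 genes passed 2-fold higher and 0.0518% passed it lower, and on that of experiment 3, 138 or 0.714% were higher and 0.305% lower. None of the 5 genes was among them.

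The relatives of each gene were read from lists of its pathway or family. Over the 5 conditions, 0.263% to 2.33% of all genes passed 2-fold higher and 0.387% to 2.13% lower. At these shares few genes of a short list pass, and the 5 genes were chosen for being high. Nothing is therefore read about a family from the counts below. Among the receptors and fellow ligand of Gas6, Mertk had a log2 ratio of 1.28 in Ascl2 null organoids, 0.76 in Tcf7l2 null organoids with Ascl2 overexpression, -0.04 in Ascl2-overexpressing organoids of experiment 2, -0.93 in Tcf7l2 null organoids and -0.89 in experiment 1. The brightest Tyro3 probe stayed within 2-fold in all 5 conditions, between -0.10 and 0.58, although it read 1.06 on the VillinCreERT2 self-self array. The Axl probe was well above background in no channel. Pros1, the other vitamin K-dependent ligand of these receptors, was by its brightest probe at -1.60 in Ascl2-overexpressing organoids of experiment 2 and between -0.71 and -0.19 in the other 4 conditions. Its second probe read -0.97 in Ascl2-overexpressing organoids of experiment 2, within 2-fold. Ggcx, Vkorc1 and Vkorc1l1, whose products carry out and sustain vitamin K-dependent carboxylation, stayed between -0.29 and 0.19 in every condition. Of the 7 genes of this list that passed the filter, Gas6 and Mertk were at or beyond 2-fold higher in Ascl2 null organoids, beside 2.33% of all genes. In Ascl2-overexpressing organoids of experiment 2 and Tcf7l2 null organoids with Ascl2 overexpression Gas6 alone was, beside 1.13% and 1.19%.

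Of 20 cleavage and polyadenylation factors, Cstf2t, chosen for being high, alone was at or beyond 2-fold in any of the 5 conditions. Beside it, 0.263% to 2.33% of all genes passed 2-fold higher and 0.387% to 2.13% lower. Cstf2, its parent gene on the X chromosome, had a log2 ratio of -0.07 in Ascl2-overexpressing organoids of experiment 2, -0.60 in Tcf7l2 null organoids with Ascl2 overexpression, -0.28 in Ascl2 null organoids, 0.44 in Tcf7l2 null organoids and 0.20 in experiment 1. The median of the list was 0.03, -0.24, -0.24, 0.23 and 0.07 over the same conditions, beside medians of 0.01 or nearer 0 over all genes. Cstf1 and Cstf3, which encode the other subunits of the cleavage stimulation factor, lay between -0.82 and 0.13.

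Of the 5 STAR-family genes, Khdrbs3, chosen for being high, alone was at or beyond 2-fold in any condition. The shares of all genes were 0.263% to 2.33% higher and 0.387% to 2.13% lower, here and for the next list. Khdrbs1, its widely expressed relative, lay between -0.59 and 0.68 over the 5 conditions by its brightest probe, and Khdrbs2, dim on these arrays, between -0.28 and -0.03. Of 8 measured kelch and BTB genes, Cul3 and Rbx1 included, Kbtbd11 alone was at or beyond 2-fold, and the other 7 lay between -0.54 and 0.58.

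Among the small IQ-motif genes, a second gene was high with Pcp4l1. Nrgn encodes neurogranin, a calmodulin-binding protein with an IQ motif that is best known from neurons. It had a log2 ratio of 2.38 in Ascl2-overexpressing organoids of experiment 2, 2.59 in Tcf7l2 null organoids with Ascl2 overexpression, 1.09 in Ascl2 null organoids, 0.26 in Tcf7l2 null organoids and -0.68 in experiment 1. Pcp4 itself did not follow: it was at -0.15, -0.01, -1.60, 0.47 and 0.17 over the same conditions.

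**Figure D5:**
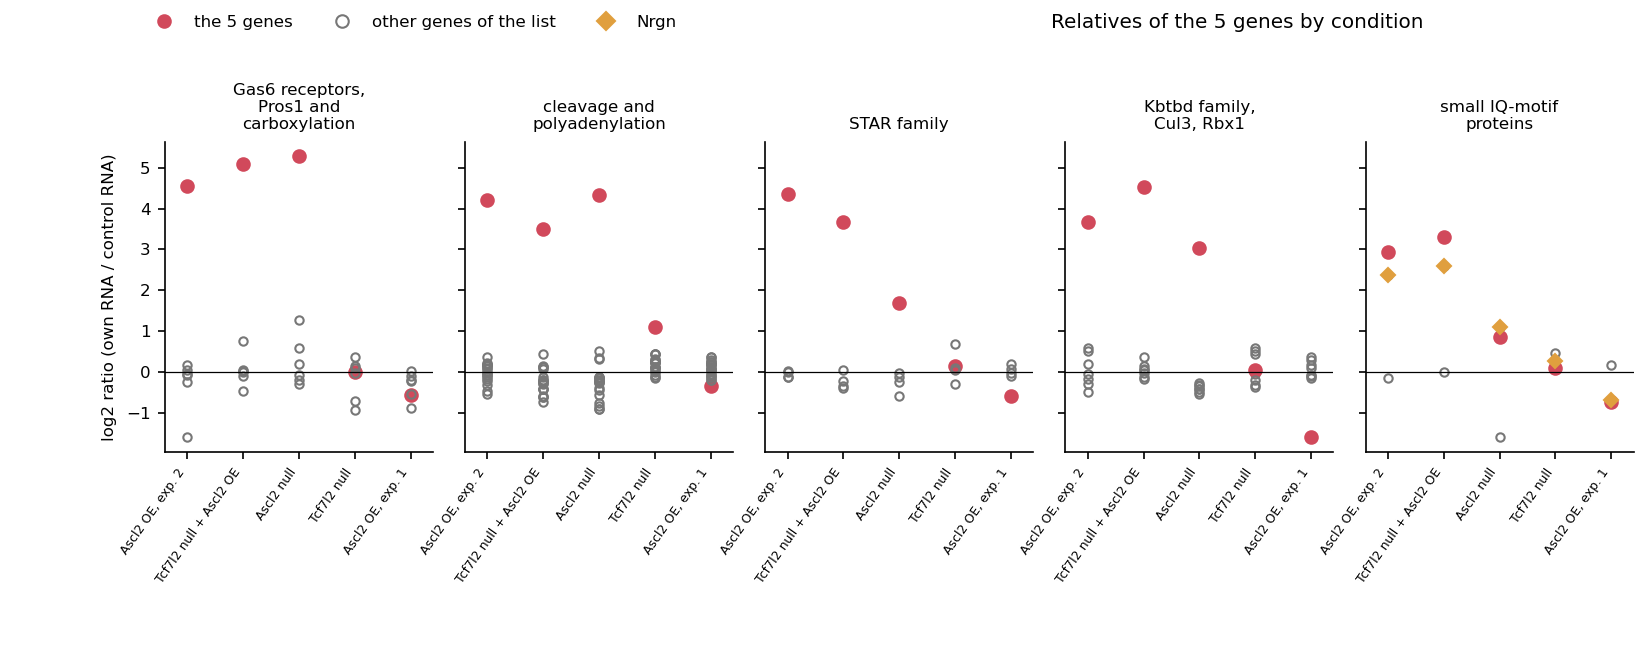
Log2 ratio of own over control RNA, less the dye term (vertical axis), in the 5 conditions (horizontal axis) for genes of 5 lists that passed the filter; filled circles are the 5 genes, open circles the other genes of each list, and the diamond Nrgn. The left 3 conditions of each panel are those by which the 5 genes were chosen. That Gas6, Cstf2t, Khdrbs3 and Kbtbd11 lie above their relatives there follows from the choice, and nothing is read from it. Nrgn, at 2.38, 2.59 and 1.09, lies beside Pcp4l1 at 2.94, 3.31 and 0.85.

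The profiles of the 5 genes over the 8 arrays correlated with each other at Pearson r between 0.82, for Cstf2t with Pcp4l1, and 0.97, a range given as a description, since the genes were chosen for a common pattern and 3 arrays share the dsGFP control. Khdrbs3 and Pcp4l1 were the pair whose ratio in Ascl2 null organoids (1.70 and 0.85) lay furthest below that of experiment 2, whereas Gas6 was as high there (5.29) as in Ascl2-overexpressing organoids of experiment 2 (4.54), and Cstf2t was at least 4.33 there and at least 4.21 in experiment 2.

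Among 1614 genes at or beyond 2-fold on at least 1 array, the 10 most like the mean profile of the 5 genes were Akr1b8, Atp6v0e2, Pm20d1, Pygl, C030027H14Rik, Slc6a9, Dusp16, Dct, Smpx and Otop3, with r from 0.98 to 0.99 over 8 arrays. Akr1b8, an aldo-keto reductase, had log2 ratios of 2.69 in Ascl2-overexpressing organoids of experiment 2, 3.11 in Tcf7l2 null organoids with Ascl2 overexpression, 2.62 in Ascl2 null organoids, 0.17 in Tcf7l2 null organoids and -0.58 in experiment 1. Atp6v0e2, a subunit of the proton pump of acidic organelles, had 2.85, 3.33, 2.99, 0.19 and -0.68 over the same conditions. Of these 10 genes, 9 were below 0 in experiment 1, and Dct was at 0.03.

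By single gene, Atp6v0e2, Dusp16 and Akr1b8 were most like Gas6, and Pm20d1, Slc6a9 and a probe annotated only by a transcript identifier were most like Kbtbd11. Fam149a, C030027H14Rik and 1810065E05Rik were most like Khdrbs3. Krba1, Trim68 and Vnn1 were most like Cstf2t, and of these Trim68 was, like Cstf2t, above 0 in Tcf7l2 null organoids, at 0.58. Inpp5d, 4930526I15Rik and Ppm1l were most like Pcp4l1, with log2 ratios of 0.22, 0.31 and 0.44 in Ascl2 null organoids.

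Gas6 and Kbtbd11 lie on the same chromosome, with their probes 1568 kb apart. None of the 13 measured genes between them was at or beyond 2-fold in any of the 5 conditions. The shares of all genes were 0.263% to 2.33% higher and 0.387% to 2.13% lower. At these shares few genes pass, so nothing is read from this count or from that of the neighbours below. Within 500 kb of a probe, 22 measured genes flank Gas6, 4 flank Kbtbd11, 35 flank Pcp4l1 and 1 flanks Cstf2t. None of these neighbours was at or beyond 2-fold together with its gene, both in the same direction, in 2 or more conditions. Proz, which encodes a plasma protein and lies 390 kb from Gas6, was in 1 condition, and was picked out after its values were seen. It had 1.75 in Ascl2 null organoids, 0.82 in Tcf7l2 null organoids with Ascl2 overexpression, 0.31 in Ascl2-overexpressing organoids of experiment 2, -0.85 in Tcf7l2 null organoids and -1.09 in experiment 1, where Gas6 was also below 0, at -0.57, but within 2-fold.

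Markers of several cell types differed on the arrays where the 5 genes were high. In a bulk culture, more cells of a type and more RNA per cell cannot be told apart. Of 17 measured enteroendocrine markers, 5 passed 2-fold higher and 0 lower in Ascl2-overexpressing organoids of experiment 2, beside 1.13% and 0.978% of all genes, although the median of the list was -0.01 and 8 of the 17 were above 0. In Tcf7l2 null organoids with Ascl2 overexpression 5 were higher and 0 lower, beside 1.19% and 2.13%, with a median of 0.40. In Ascl2 null organoids 9 were higher and 1 lower, beside 2.33% and 1.58%, with a median of 1.13, and the lower one was Neurog3, the transcription factor of endocrine progenitors, at -2.19. In Tcf7l2 null organoids 0 were higher and 0 lower, beside 0.414% and 0.496%, and in experiment 1 0 were higher and 5 lower, beside 0.263% and 0.387%, with a median of -0.59. Their summed normalised level was 236265 against 191927 in Ascl2-overexpressing and dsGFP organoids, 304398 against 161061 in Tcf7l2 null organoids with Ascl2 overexpression and dsGFP organoids, 191153 against 67999 in Ascl2 null and VillinCreERT2 organoids, and 76308 to 89921 against 124528 to 125656 in the RNAs of experiment 1. On the dsGFP self-self array this level was 194382 in Cy5 and 241894 in Cy3. The 236265 of Ascl2-overexpressing organoids thus lay within the range of the dsGFP channels, 161061 to 241894. On the VillinCreERT2 self-self array the level was 73004 and 73892. The direction of Gcg was that of the 5 genes in each of these conditions other than Tcf7l2 null, and the part of such cells in their values was not tested.

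Of 11 measured tuft cell markers, 5 were at or beyond 2-fold higher in Ascl2-overexpressing organoids of experiment 2, 8 in Tcf7l2 null organoids with Ascl2 overexpression and 1 in Ascl2 null organoids, beside 1.13%, 1.19% and 2.33% of all genes. In Tcf7l2 null organoids and in experiment 1, 0 were, beside 0.414% and 0.263%. The list had medians of 0.81, 1.23 and 0.18 in the first 3 of these 5 conditions. In Ascl2 null organoids 1 marker, Hpgds, a prostaglandin D synthase, was lower, at -1.83, beside 1.58% of all genes. Hpgds also read -0.78 on the VillinCreERT2 self-self array. Dclk1, a defining marker, had 0.79, 1.23 and 0.91 in the same first 3 conditions. Their summed level was 5474 against 2657, 7376 against 2897 and 2451 against 1920 in these same 3 conditions and their controls. Of 14 crypt base columnar stem cell markers, 4, 8 and 2 were at or beyond 2-fold lower in these 3 conditions, beside 0.978%, 2.13% and 1.58% of all genes. Lgr5 was at -2.10, -2.30 and -0.90. Aqp4 went the other way in Ascl2-overexpressing organoids of experiment 2, at 1.59, where 1.13% of all genes passed 2-fold higher. In Ascl2 null organoids 13 of the 14 had a value. Olfm4, at -3.31 there, also read -1.41 on the VillinCreERT2 self-self array. Of 12 enterocyte markers, 0, 2 and 6 were at or beyond 2-fold higher in the same 3 conditions, beside 1.13%, 1.19% and 2.33% of all genes. Fabp1 was at -0.81, 0.23 and 0.70. In Ascl2-overexpressing organoids of experiment 2, 2 enterocyte markers were at or beyond 2-fold lower, beside 0.978% of all genes: the lactase gene Lct at -1.67 and the apolipoprotein gene Apoa4 at -1.27. Apoa4 was among the 6 that were higher in Ascl2 null organoids, at 1.80, but it also read 1.02 on the VillinCreERT2 self-self array.

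Of 9 Paneth cell markers, 6 were at or beyond 2-fold lower in Ascl2-overexpressing organoids of experiment 2, with a median of -1.73, and 7 passed it in the Tcf7l2 null organoids that overexpress Ascl2, with a median of -1.61, beside 0.978% and 2.13% of all genes. The lysozyme gene Lyz1 had -2.04 and -2.26 there. In Ascl2 null organoids 1 Paneth cell marker was higher and 1 lower, beside 2.33% and 1.58%, with a median of 0.02 and Lyz1 at 0.71. The summed Paneth cell level was 219613 against 378227, 208845 against 384637 and 736714 against 489528 in these 3 conditions and their controls. Paneth cell markers thus were low on 2 of the 3 arrays where the 5 genes were high, and the part of this in the values of the 5 genes was not tested.

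Gas6 is also made by fibroblasts, smooth muscle and endothelium, so markers of these and of immune cells were read. Of 9 fibroblast and smooth muscle, 9 immune and 3 endothelial markers that passed the filter, 0 were at or beyond 2-fold higher in any of the 5 conditions. The share of all genes was 0.263% to 2.33%, so 0 of so few markers lies near it. In Ascl2 null organoids Postn was lower, at -1.90, beside 1.58% of all genes. Many markers were dim: in Ascl2-overexpressing organoids of experiment 2, 3 fibroblast and smooth muscle, 6 immune and 0 endothelial markers were well above background. Lum, Pdgfra and Thy1 of the fibroblast list, Adgre1 of the immune list and Cdh5, Tie1 and Emcn of the endothelial list did not pass the filter. The summed fibroblast and smooth muscle level was 7226 against 5597 in Ascl2-overexpressing and dsGFP organoids of experiment 2, 4216 against 6477 in Tcf7l2 null organoids with Ascl2 overexpression and dsGFP organoids, and 8366 against 9390 in Ascl2 null and VillinCreERT2 organoids.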

How the data were processed

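Spot intensities come from the scanner files deposited by the authors, made with Agilent Feature Extraction 10.5.1.1 per the file headers, with 45018 spots on an array and 1639 controls among them. Per the file headers, the log10 ratio in the same files is Cy5 over Cy3 after the scanner software's own background and dye correction. A value table deposited by the authors gives log2 ratios. In experiments 2 and 3 (6 arrays) it has the scale, centring and direction of the scanner ratio (slopes of 1.00), and in experiment 1 the second array is turned (slopes 0.86 and -0.85), for reasons that are not given in the sources used here. Column medians differ little: the median of its columns was 0.02 on the first and -0.01 on the second array of experiment 1, 0.03 for Tcf7l2 null organoids that overexpress Ascl2, 0.02 on the self-self array with dsGFP RNA, and 0.00 on each of the other 4.

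Median spot and local background intensities were used, because the mean spot intensity is missing from 6 files. On the second array of experiment 1, a few local backgrounds were so high that spots fell as low as -407547 after subtraction, which distorted the background fit of that array. Local backgrounds that the scanner software marks as outliers, 1.18% to 3.15% of spots per channel, were therefore replaced by the channel's median, a choice made after seeing the data. Background was corrected with normexp (offset 50) and log2 ratios were normalised by loess within arrays, where control and outlier spots had no weight (R 4.3.3, limma 3.58.1). Levels of single channels were taken after Aquantile scaling between arrays. Loess sets most genes near 0 and so hides a shift common to all genes. A linear model over 8 arrays held a dye term and an effect for each of the 5 conditions, with 2 residual degrees of freedom, and was tested on simulated data. Values given without a dye term are said to be so, and values of the 2 arrays of experiment 1, whose dyes are swapped, are given per array before it. A self-self value is the ratio less the dye term estimated without that array.

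Of 41174 probes, 27644 had a channel well above background on at least 2 of 8 arrays, and the brightest stood for each of 19359 genes, named through RefSeq GRCm38.p6 where accessions matched (26918 probes by their own accession, 111 by another listed, 14145 by the array's name). No spot was saturated. Precision is limited by the number of arrays. The labels do not say whether the arrays of experiment 1 came from separate cultures, so their spread may be technical.

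The genes, lists and tests were chosen with earlier results of these data known. Named genes were the 5 genes, list members at or beyond 2-fold in some condition, close relatives and receptors, markers and targeted genes, the genes of most similar profile and neighbours within 500 kb that moved alike. Alternatives changed the background correction, the normalisation, the dye term, the filter, the probe rule and the arrays used. The exon structure around the probes was not analysed here.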

Additional observations from a re-analysis of the deposited data

Results flagged for a closer look

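The effect of Ascl2 overexpression had opposite signs in experiments 1 and 2 for each of the 5 genes, on every array of each. The log2 ratio of experiment 2 less that of experiment 1 was 5.11 for Gas6, 5.25 for Kbtbd11, 4.95 for Khdrbs3, at least 4.55 for Cstf2t and 3.67 for Pcp4l1. The difference was not tested, since experiment 2 has 1 array and the genes were chosen for it, and the experiments also differ in control and slide.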

How the results depend on the processing

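With 1 array per condition outside experiment 1, no value there has a replicate check. In both Ascl2-overexpressing conditions of experiment 2, all 5 genes stayed at or beyond 2-fold higher under every alternative, except, without Tcf7l2 loss, under a shared Ascl2 effect over experiments 1 and 2. By its construction that effect averages arrays of opposite sign. It left 0 of the 5 genes past 2-fold in experiment 2, put Kbtbd11 there at -0.081, and put the median of the 5 genes at 0.82 (in either experiment), 2.97 in Tcf7l2 null with Ascl2 overexpression, 2.29 in Ascl2 null and -0.57 in Tcf7l2 null organoids, with 29 genes in all past 2-fold for Ascl2. The main medians were -0.60 in experiment 1, 0.10 in Tcf7l2 null, 3.67 in Tcf7l2 null with Ascl2 overexpression, 4.21 in Ascl2 overexpression of experiment 2 and 3.05 in Ascl2 null organoids. In that order, the scanner's ratio gave -0.86, no shift beyond the spread, 5.76, 5.38 and 3.60, and the deposited table -0.86, no such shift, 5.76, 5.73 and 3.60. Median centring gave -0.11 in Tcf7l2 null, 4.02 in Ascl2 overexpression of experiment 2 and 2.56 in Ascl2 null organoids. The slide's own self-self array as dye term gave -0.075, 3.46 and 4.03 in the 3 conditions of experiment 2 and has no value for experiment 1. The mean of all probes gave 3.50 in Tcf7l2 null with Ascl2 overexpression and 1.70 in Ascl2 null organoids. Local backgrounds as deposited, added after seeing the data, gave -0.41 in experiment 1, 0.28 in Tcf7l2 null and 3.38 in Ascl2 null organoids. Leaving out either array of experiment 1 gave medians from -0.69 to -0.50 there. Cstf2t in Tcf7l2 null organoids fell below 2-fold, leaving 0 of the 5 genes, under median centring, the slide's own dye term and the shared effect. Genes at or beyond 2-fold higher numbered 51 in experiment 1, against 145 by the scanner's ratio, 83 with median centring, 312 in the deposited table, 13 with backgrounds as deposited, and 75 to 185 with 1 array left out (185 without replicate 1). They numbered 80 in Tcf7l2 null (651 by the scanner's ratio, 444 in the table), 230 in Tcf7l2 null with Ascl2 overexpression (1147 and 808), 219 in Ascl2 overexpression of experiment 2 (980 and 648) and 450 in Ascl2 null organoids (1009 and 967, and 220 with median centring). For a dim control such as that of Cstf2t, the size of a ratio is set by the floor under the dim channel. Causes of the other shifts were not tested. No paired analysis was possible because experiment 1 alone has replicate numbers, and its ratios already pair own and control RNA on each array.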
